A study of Mus musculus with 12 samples.

Results

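The 8 transcripts described here are Slc13a3, Atp4a, Dnaic1, Espn, Emp2, Plcxd1, Rtn4r and Gm12195. They were selected on measured values of these same livers, as genes among those with the smallest genotype p-values and with higher counts in livers labelled HuRHep-/- than in WT livers on both diets. They are 8 of the 23391 genes in the count tables, and all 8 are among the 20093 genes listed for both diets. Their genotype differences are therefore a description, and any count of genotype calls among them follows from the choice, while diet, gene position and sequence played no part in the choice. The spread between mice entered it through the p-values. No fixed limit separated them from other genes. In a fit of all 14535 tested genes with genotype averaged over the diets, their places in the order of p ran from 13 (Gm12195) to 218 (Slc13a3).

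Bulk liver RNA was sequenced from 12 male C57BL/6N mice, 3 per group, with 1 library per mouse. Per the labels, all mice carried a floxed Elavl1 allele (HuR flox/flox) and were 4 to 6 months old. The HuRHep-/- mice received AAV8-Tbg-Cre, a virus with Cre under a hepatocyte promoter, and the WT mice AAV8-Tbg-null. The study's methods name a cross with albumin-Cre mice instead, and the counts do not show which holds. Chow WT and chow HuRHep-/- mice ate normal chow. HFCF WT and HFCF HuRHep-/- mice ate a diet with 40 kcal% fat, 2% cholesterol and 20 kcal% fructose for 16 weeks. The 2 diets were deposited as separate tables, so diet and table cannot be told apart.

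HuR, the product of Elavl1, is an RNA-binding protein that attaches to U-rich and AU-rich elements, mostly in introns and 3′ untranslated regions, and affects the splicing, stability and translation of the bound RNA. The 8 transcripts come from unrelated families. Slc13a3 encodes NaDC3, a sodium-coupled carrier of dicarboxylates such as succinate, known from kidney and liver. Atp4a encodes the catalytic subunit of the gastric proton pump. Dnaic1 encodes an intermediate chain of the dynein that moves motile cilia, and Espn encodes espin, an actin-bundling protein of microvilli and stereocilia. Emp2 encodes a tetraspan epithelial membrane protein, Plcxd1 a protein with a phospholipase C X domain, and Rtn4r the Nogo receptor, best known from neurons. Gm12195 is annotated as a non-coding antisense RNA.

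Library totals ran from 30071731 to 35949203 counted reads. The targeted gene went against the labels. Elavl1 had 938, 876 and 948 reads in chow WT livers and 1475, 1265 and 1261 in the chow livers labelled HuRHep-/-, and 904, 791 and 849 against 1299, 1242 and 1271 on HFCF. Its whole-gene count was thus higher under the deletion label in both diets, and a count over the whole gene does not show whether the floxed part was present. Every direction below is therefore drawn between livers labelled HuRHep-/- and livers labelled WT. Hepatocyte markers (8 of 8 listed, none near 0) summed to 101362 to 124079 CPM (read counts scaled to library size with trimmed mean of M-values factors, TMM) in chow WT and 82011 to 91560 in chow HuRHep-/- livers, and to 71447 to 79930 against 64158 to 68329 on HFCF. The sums were thus lower under the HuRHep-/- label in both diets, without overlap, with 0 of 8 markers called on chow by limma, with voom weights or at an unadjusted p under 0.05, and 1 of 8 called lower on HFCF. Their part in the levels of the 8 transcripts was not tested. Whole liver was sequenced, so fewer cells of a type and less RNA per cell cannot be told apart.

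Slc13a3 was the most abundant of the 8 and differed both by genotype and by diet. On chow it had 325, 394 and 340 reads in WT livers and 1047, 899 and 961 in HuRHep-/- livers. The ranges were far apart, with 11.7 ± 1.29 CPM against 29.4 ± 1.28 (SD, n = 3 each), a log2 fold change of 1.33 (SE 0.10). HFCF WT livers had 1017, 882 and 1607 reads and HFCF HuRHep-/- livers 2918, 2582 and 1850. After scaling, HFCF WT replicate 3 (51.1 CPM) lay above HFCF HuRHep-/- replicate 3 (49.0 CPM), so these groups overlapped. Their means were 35.0 ± 13.96 and 62.5 ± 12.05 CPM, a log2 fold change of 0.88 (SE 0.27), which was 1.20 without HFCF WT replicate 3. The gene lies at chr2:165405028-165473230 on the minus strand of GRCm38.

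Diet moved Slc13a3 upward in both genotypes. The log2 difference of HFCF over chow was 1.51 (SE 0.22) in WT livers and 1.07 (SE 0.22) in HuRHep-/- livers, with limma adjusted p = 0.00111 and 0.00318. A gene was called when its Benjamini-Hochberg adjusted p was at most 0.05 and its fold change at least 1.5. In WT livers 6.58% of the 14535 tested genes were called higher on HFCF and 3.36% lower, and in HuRHep-/- livers 14.2% higher and 5.57% lower. Averaged over genotypes, with diet labels permuted within genotype, the exact two-sided p was 0.005, the smallest that 400 arrangements allow. Permutation p-values here and below were not adjusted for the number of transcripts tested, unlike the limma values beside them. The order of group means was HFCF HuRHep-/-, HFCF WT, chow HuRHep-/- and chow WT. Only the last neighbours in that order, chow HuRHep-/- and chow WT, had ranges that did not overlap.

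The other Slc13 carriers were not called by genotype but were called by diet. Between genotypes limma called 0 of the 2 others tested on chow and 0 of the 3 on HFCF, with 1 and 1 at an unadjusted p under 0.05 and 0 and 1 called with voom weights. Slc13a5, the citrate carrier NaCT, stood closest, with 0.0786 ± 0.0440 RPKM (CPM per kilobase of exon) in chow WT and 0.540 ± 0.354 in chow HuRHep-/- livers. Its log2 fold change was 2.60 (SE 0.60) on chow and 0.95 (SE 0.23) on HFCF, with adjusted p = 0.0534 and 0.0510. Between the diets all 3 were called in WT livers. Slc13a4, a sulfate carrier, rose by 2.46 (SE 0.36) and Slc13a5 by 2.28 (SE 0.50) on the log2 scale, whereas Slc13a2, the dicarboxylate carrier NaDC1, fell by 2.84 (SE 0.45). Slc13a4 rose in HuRHep-/- livers as well, by 2.15 (SE 0.36) and Slc13a2 fell by 3.02 (SE 0.45), while the difference of Slc13a5, 0.63 (SE 0.50), was not called (adjusted p = 0.334). Slc13a1, the renal sulfate carrier, was at or near 0 throughout, at 0.00568 RPKM or less in each group.

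**Figure D1:**
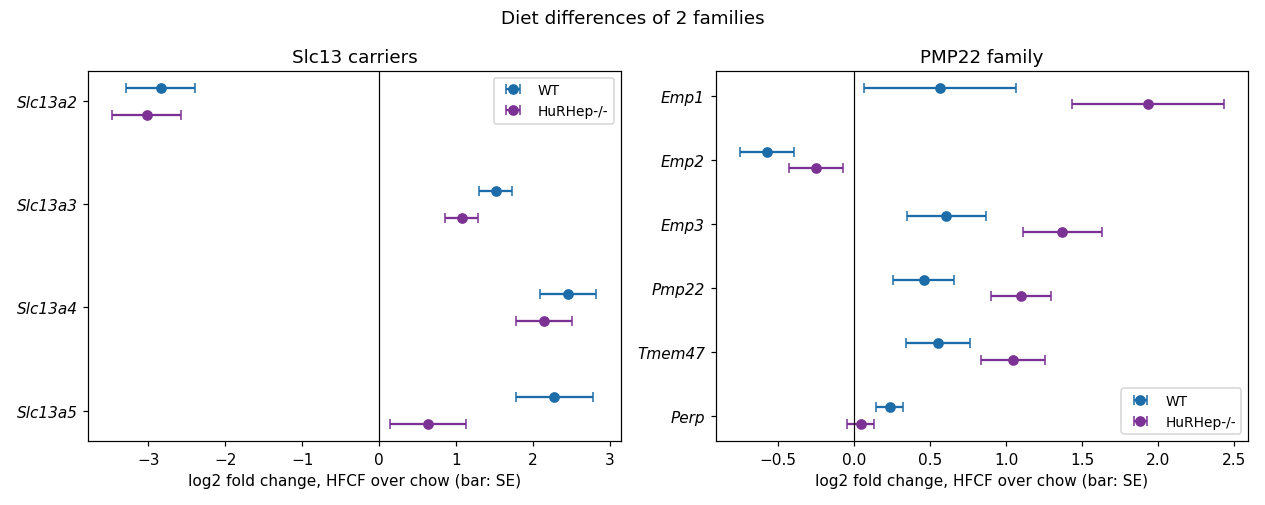
Log2 fold change of HFCF over chow (x axis; point with SE from limma) for the tested Slc13 carriers and the tested genes of the PMP22 family (y axis), in WT livers (blue) and HuRHep-/- livers (purple), 3 mice per group. Slc13a3 sits to the right of 0 in both genotypes and Slc13a2 to the left, and Emp2 is the PMP22 family gene to the left of 0 in both.

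Atp4a was a low transcript with a large separation of genotypes. It had 22, 16 and 17 reads in chow WT livers and 113, 117 and 126 in chow HuRHep-/- livers. The HFCF livers held 8, 18 and 10 reads in WT and 80, 109 and 79 in HuRHep-/-. The lowest HuRHep-/- liver stood 4.51-fold above the highest WT liver on chow and 3.59-fold on HFCF, in CPM. The log2 fold change was 2.55 (SE 0.20) on chow and 2.71 (SE 0.36) on HFCF. Atp4a lies at chr7:30712209-30725534 on the plus strand, 2167 bases from Tmem147, which was not called in either diet.

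On HFCF Atp4a was lower than on chow. The log2 difference was -0.82 (SE 0.30) in WT and -0.67 (SE 0.30) in HuRHep-/- livers, and neither passed the limma test (adjusted p = 0.0661 and 0.0981). In WT livers it passed without HFCF WT replicate 2 (-1.17, adjusted p = 0.0073), and the same omission brought the HuRHep-/- difference past the threshold (-0.67, adjusted p = 0.0343). The HuRHep-/- difference also passed with voom weights and in a fit of the 6 HuRHep-/- libraries. Over both genotypes the mean difference was -0.74, with an unadjusted exact permutation p of 0.01. The 2 HuRHep-/- groups did not overlap (3.29 to 3.90 CPM on chow and 1.98 to 2.80 on HFCF), whereas the 2 WT groups did.

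Its partner subunit was near 0. Atp4b, the beta subunit that the pump needs, had at most 3 reads in every library. The gastric genes Cblif, Gkn1 and Gkn2 were not analysed here, and 4 gastric markers, Atp4b among them, were each too low to be tested. They summed to 0.100 to 0.199 CPM per library in chow WT and 0.124 to 0.340 in chow HuRHep-/- livers, which overlap, and to 0.0636 to 0.153 in HFCF WT and 0.420 to 0.566 in HFCF HuRHep-/- livers, which do not. On HFCF the order of genotypes was that of Atp4a, whereas in HuRHep-/- livers the order of diets was the opposite. Muc5ac, like Atp4b, had at most 3 reads in every library, and the part of these markers in the level of Atp4a was not tested. Of 13 other genes for potassium-counter-transporting ATPases and their regulators, 7 were tested on chow and 8 on HFCF. Between genotypes 0 were called by limma and 0 with voom weights, with 1 on chow and 4 on HFCF at an unadjusted p under 0.05. Atp1b1, which encodes a sodium pump beta subunit, had genotype log2 fold changes of 0.28 (SE 0.14) on chow and 0.41 (SE 0.12, limma adjusted p = 0.0803) on HFCF, neither called.

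Dnaic1 had the widest genotype gap among the transcripts tested on chow and the lowest levels on HFCF in livers labelled HuRHep-/-. It had 6, 5 and 3 reads in chow WT livers and 59, 89 and 60 in chow HuRHep-/- livers, a log2 fold change of 3.66 (SE 0.35). On HFCF it had 1, 1 and 0 reads in WT livers and 7, 9 and 5 in HuRHep-/- livers. Over the group this was 2 against 21 reads, a ratio of 9.16 with an exact 95% counting interval of 2.24 to 80.5. The interval pools the reads of 3 mice and leaves out the spread between them. It is a description and no test, since Dnaic1 was chosen on this contrast. The ranges did not overlap in either diet, but Dnaic1 was too low for the HFCF fit. In the fit of all 12 libraries it passed the count filter through the chow HuRHep-/- group alone.

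Dnaic1 had fewer reads on HFCF than on chow in both genotypes. For the HuRHep-/- label 208 reads over the chow group compared with 21 on HFCF, a ratio of chow over HFCF of 11.7 with an exact 95% counting interval of 7.48 to 19.4. No test of diet is given for Dnaic1, since it entered the fit only through the group in which it was high. In WT livers 14 reads on chow compared with 2 on HFCF, a ratio of HFCF over chow of 0.126 with a counting interval of 0.0140 to 0.551. HFCF HuRHep-/- livers (0.132 to 0.231 CPM) overlapped with chow WT livers (0.0989 to 0.199 CPM). The gene spans chr4:41569775-41638158 on the plus strand.

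Enho, which encodes the secreted peptide adropin, a liver product linked to energy intake, overlaps the 3′ end of Dnaic1 by 15 exon bases on the opposite strand (chr4:41638144-41640324, minus strand). Like Dnaic1 it was highest in chow HuRHep-/- and lowest in HFCF WT livers. Enho had 616, 440 and 324 reads in chow WT and 1533, 1738 and 1483 in chow HuRHep-/- livers, and 45, 96 and 51 against 287, 331 and 280 on HFCF. Its genotype log2 fold change was 1.70 (SE 0.21) on chow and 2.09 (SE 0.31) on HFCF. The diet log2 difference of Enho was -3.04 (SE 0.29) in WT and -2.65 (SE 0.29) in HuRHep-/- livers, with limma adjusted p = 0.000145 and 0.000147. The libraries were stranded and counted by strand per the study's methods, and reads in the 15 shared bases could still be assigned wrongly. Fam219a, which starts 237 bases from the start of Dnaic1 and points away from it, had genotype log2 fold changes of 0.28 (SE 0.18) and 0.19 (SE 0.15), which were not called.

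**Figure D2:**
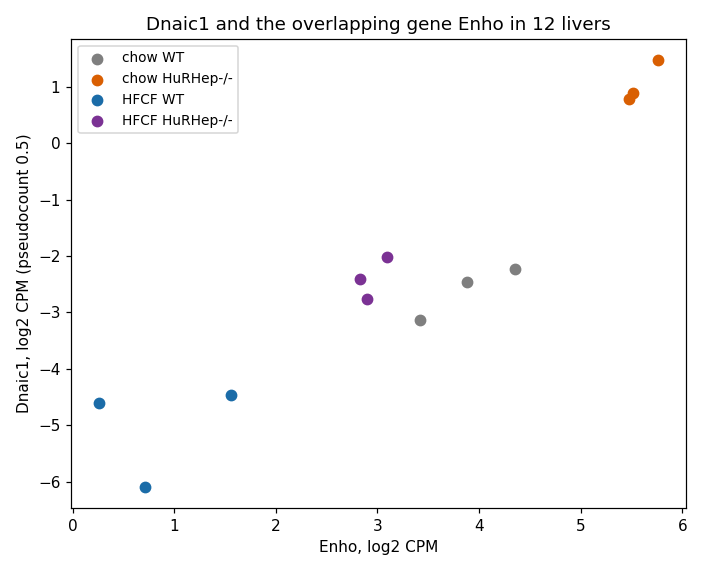
Level of Dnaic1 (y axis) against that of the overlapping gene Enho (x axis) in each of 12 livers, both as log2 CPM with a pseudocount of 0.5; each point is 1 mouse, coloured by group. The chow HuRHep-/- livers are at the upper right and the HFCF WT livers at the lower left, with the HFCF HuRHep-/- and chow WT livers between them.

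Enho was the only neighbour called between genotypes. Of 14 tested genes that overlap or adjoin the 8 transcripts, 1 was called between genotypes on chow and 1 on HFCF, Enho in each case. Plcxd1 shares 1116 of its 3811 exon bases with Gtpbp6, a gene for a GTP-binding protein, on the opposite strand. Reads in the shared bases could be assigned wrongly here as well. Gtpbp6 was the more abundant of the 2, at 13.2 against 1.71 CPM in chow WT livers. Gtpbp6 had genotype log2 fold changes of -0.09 (SE 0.09) and 0.16 (SE 0.11). Gm12195 lies within Tbc1d9b, a gene for a Rab-regulating protein, on the opposite strand and without shared exon bases. Tbc1d9b had log2 fold changes of -0.11 (SE 0.07) and -0.31 (SE 0.09), and neither was called.

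Other genes of motile cilia were not called by genotype. Of 34 other listed genes for axonemal dyneins and motile cilia, 10 were tested on chow and 14 on HFCF. Between genotypes 0 were called by limma and 0 with voom weights, with 2 on chow and 4 on HFCF at an unadjusted p under 0.05. Their median log2 fold change was 0.02 on chow and 0.50 on HFCF, beside medians of 0.00 and -0.01 over all tested genes. Between diets 0 of 15 were called by limma in WT livers, with 1 at an unadjusted p under 0.05 and 0 called with voom weights. In HuRHep-/- livers 2 of 15 were called, both higher, with 4 called with voom weights, beside 14.2% of all tested genes called higher. The assembly factors Dnaaf2 and Dnaaf5, the most abundant of the list with Cfap126, differed between genotypes on chow by -0.01 (SE 0.14) and 0.13 (SE 0.10) on the log2 scale. On HFCF they differed by -0.08 (SE 0.12) and -0.13 (SE 0.11). Cfap126 differed by 0.43 (SE 0.17) on chow and 0.35 (SE 0.16) on HFCF. Rsph9 differed by 0.75 (SE 0.32) and 0.70 (SE 0.26), and Ccdc151 by -0.33 (SE 0.29) and -0.17 (SE 0.25). Markers of motile ciliated cells summed to 3.68 to 3.86 CPM per library in chow HuRHep-/- and 5.37 to 7.42 in HFCF HuRHep-/- livers, and to 2.78 to 3.32 and 3.74 to 3.98 CPM in WT livers. The order of diets in these sums was thus opposite to that of Dnaic1. The order of genotypes was the same as for Dnaic1 in both diets, without overlap. Single markers did not all follow the sum. The 3 tested had a median genotype log2 fold change of -0.44 on chow and 0.35 on HFCF, with 0 called. Foxj1 differed by -0.44 (SE 0.59) on chow and 2.05 (SE 0.62) on HFCF, and Ccdc39 by -0.76 (SE 0.35) and -0.95 (SE 0.35). Cfap126 was higher in both diets. The part of these markers in the level of Dnaic1 was not tested. Tekt1, a defining marker, had at most 3 reads in every library.

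The promoter of Dnaic1 is shown because its level differed both by genotype and by diet. The 300 bases around its start (RefSeq, GRCm38.p6, chr4:41569544-41569843, plus strand) hold 67% G or C and 27 CpG dinucleotides. Capitals mark the GC box GGGCGG or its complement CCGCCC.
Dnaic1 promoter: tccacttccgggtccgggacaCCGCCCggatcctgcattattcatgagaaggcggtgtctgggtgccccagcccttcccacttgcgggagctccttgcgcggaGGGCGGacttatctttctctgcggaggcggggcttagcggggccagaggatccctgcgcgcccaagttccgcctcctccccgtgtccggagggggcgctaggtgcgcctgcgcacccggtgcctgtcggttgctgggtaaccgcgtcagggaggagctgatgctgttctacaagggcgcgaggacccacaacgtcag

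Espn was higher in HuRHep-/- livers on both diets, with a wider gap on HFCF. It had 27, 38 and 53 reads in chow WT and 109, 92 and 74 in chow HuRHep-/- livers. Under HFCF the WT livers had 31, 27 and 32 reads and the HuRHep-/- livers 220, 210 and 171. The ranges did not overlap in either diet, and the lowest HuRHep-/- liver stood 1.31-fold above the highest WT liver on chow and 4.45-fold on HFCF. The genotype log2 fold change was 1.12 (SE 0.27) on chow and 2.51 (SE 0.17) on HFCF. Espn lies at chr4:152120331-152152371 on the minus strand, with its 3′ end 212 bases from that of Tnfrsf25.

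The diet differences of Espn had opposite signs in the 2 genotypes. HuRHep-/- livers were higher on HFCF by 0.89 on the log2 scale (SE 0.23, limma adjusted p = 0.0107). The WT difference was -0.50 (SE 0.23, adjusted p = 0.131), and it passed the test only without chow WT replicate 1 (-0.75, adjusted p = 0.0401). The difference between these diet effects was 1.39 (SE 0.33) and did not pass (limma adjusted p = 0.136, with a range of 0.104 to 0.312 over the alternatives). The mean over genotypes was 0.19, with an exact permutation p of 0.48.

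Among 22 other genes of actin bundling and microvilli, 2 of 14 tested were called on chow, both higher in HuRHep-/- livers (1 of them with voom weights), and 0 of 15 on HFCF by limma, with 8 at an unadjusted p under 0.05 and 1 called with voom weights. Pls1, which encodes the microvillus bundler plastin 1, had a log2 fold change of 2.26 (SE 0.49) on chow and 1.78 (SE 0.71) on HFCF, the latter not called (adjusted p = 0.149). Cobl, an actin nucleator, differed by 0.86 (SE 0.19) on chow and by 0.07 (SE 0.10) on HFCF. Cdhr5, a cadherin of microvillus tips, differed by 0.56 (SE 0.11) on chow, just under the fold limit. Rdx, for the abundant liver protein radixin, and Slc9a3r1, for its scaffold partner, differed on chow by 0.09 (SE 0.08) and -0.16 (SE 0.09). Between diets Pls1 rose by 2.70 (SE 0.66) in WT and 2.22 (SE 0.66) in HuRHep-/- livers, and 5 of 15 genes were called higher and 1 lower in HuRHep-/- livers, against 2 and 0 in WT livers, where voom weights called 1. Over all tested genes 14.2% were called higher and 5.57% lower in HuRHep-/- livers, and 6.58% and 3.36% in WT livers.

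Emp2 separated by genotype on both diets at a moderate level. It had 247, 257 and 308 reads in chow WT and 849, 700 and 444 in chow HuRHep-/- livers. HFCF counts were 221, 186 and 206 in WT and 627, 695 and 599 in HuRHep-/- livers. Chow HuRHep-/- replicate 3 was low in its group (13.7 against 21.8 and 24.7 CPM), yet above the highest WT liver at 10.2 CPM. The log2 fold change was 1.12 (SE 0.21) on chow and 1.44 (SE 0.10) on HFCF. Without chow HuRHep-/- replicate 3 the chow value was 1.37. The gene lies at chr16:10281749-10313968 on the minus strand, and 2.54% of the 31-base words in its longest transcript also occur in transcripts of other genes.

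Emp2 was not higher on HFCF in either genotype. In WT livers it was lower on HFCF by -0.57 (SE 0.18, limma adjusted p = 0.0373), under the fold limit of 1.5, and in HuRHep-/- livers the difference was -0.25 (SE 0.18, adjusted p = 0.288). Averaged over genotypes the difference was -0.41 with an unadjusted exact permutation p of 0.025. Leaving out single livers took that p to between 0.005 and 0.06.

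Some relatives of Emp2 in the PMP22 family of tetraspan proteins rose with HFCF in HuRHep-/- livers. Of 5 tested relatives 4 were called higher on HFCF in HuRHep-/- livers, beside 14.2% of all tested genes. In WT livers 0 of 5 were called by limma or with voom weights, and 4 had an unadjusted p under 0.05. The differences between these diet effects were not called by limma. In HuRHep-/- livers the log2 differences were 1.93 (SE 0.50) for Emp1, 1.37 (SE 0.26) for Emp3, 1.10 (SE 0.20) for Pmp22 and 1.05 (SE 0.21) for Tmem47, which encodes a junction protein. Perp, a p53-responsive desmosomal protein and the most abundant of the family at 49.8 to 60.0 RPKM, differed by 0.04 (SE 0.09). Between genotypes Pmp22 was called higher on HFCF (0.69, SE 0.14), and 0 of 5 relatives were called on chow by limma or with voom weights, with 1 at an unadjusted p under 0.05. Markers of stellate cells and fibroblasts, 8 genes, all with more than 3 reads in some library, summed to between 133 and 201 CPM per library in chow HuRHep-/- and 368 to 456 in HFCF HuRHep-/- livers, and to 165 to 192 and 168 to 376 CPM in WT livers. Their part in the values of these genes was not tested.

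Plcxd1 was separated by genotype without overlap on both diets. It had 56, 36 and 63 reads in chow WT and 137, 108 and 113 in chow HuRHep-/- livers. The HFCF livers had 65, 59 and 55 reads in WT and 231, 218 and 204 in HuRHep-/- livers, which is 1.76 ± 0.05 against 5.57 ± 0.16 CPM. The log2 fold change was 1.10 (SE 0.22) on chow and 1.65 (SE 0.12) on HFCF. The highest mean was in HFCF HuRHep-/- livers and the next in chow HuRHep-/- livers, and these ranges did not overlap, whereas the WT groups did. The gene lies at chr5:110099969-110105953 on the plus strand.

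Plcxd1 rose with HFCF in HuRHep-/- livers by 0.63 on the log2 scale (SE 0.18, limma adjusted p = 0.0174). It no longer passed without chow HuRHep-/- replicate 2 (0.58, adjusted p = 0.0559) or replicate 3 (0.60, adjusted p = 0.0510). In WT livers the difference was 0.07 (SE 0.18, adjusted p = 0.801), and the difference between the genotypes was 0.55 (SE 0.26, adjusted p = 0.347). Of 14 other genes for PI-PLC X domain proteins and phosphoinositide phospholipases C, 10 were tested. Between genotypes 0 were called on chow by limma or with voom weights, with 1 at an unadjusted p under 0.05, and 2 were called on HFCF, 1 of them with voom weights. Those were Plcd3, for a phospholipase C delta isoform, which was higher by 1.30 (SE 0.29), and the closest relative, Plcxd2, which fell by 0.65 on the log2 scale (SE 0.07). Plcxd2 was the more abundant of the pair in WT livers, at 12.6 ± 2.87 RPKM on chow against 0.449 ± 0.119 for Plcxd1.

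Rtn4r was read in livers labelled HuRHep-/- and in no WT liver. It had 0 reads in all 6 WT livers, 2, 3 and 0 reads in chow HuRHep-/- livers and 90, 91 and 44 in HFCF HuRHep-/- livers. A count of 0 over 3 libraries allows up to 3 reads, which is 0.0332 CPM in chow WT and 0.0294 CPM in HFCF WT livers. Against that limit the HFCF HuRHep-/- level was at least 65.4-fold higher than WT, and no fold is given for the 5 chow reads. Chow HuRHep-/- replicate 3 had no read, so the chow groups overlapped, and Rtn4r was too low for the chow fit. In the fit of all 12 libraries it passed the count filter through the HFCF HuRHep-/- group alone.

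Over the HuRHep-/- libraries 225 reads on HFCF compared with 5 on chow, a ratio of 38.0 with an exact 95% counting interval of 16.0 to 118. Intervals and limits of this kind cover counting error only. No test of diet is given for Rtn4r, since it entered the fit only through the group in which it was high. Rtn4r reached 0.986 ± 0.334 RPKM in HFCF HuRHep-/- livers, with replicate 3 at 1.17 CPM and the other livers at 2.22 and 2.34. Replicate 3 was also the lowest of its group for Slc13a3, Dnaic1, Espn, Plcxd1 and Gm12195. Rtn4r lies at chr16:18127642-18152408 on the plus strand.

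Of 12 other listed genes for the Nogo receptor complex and its ligands, 5 were tested on chow and 8 on HFCF. Between genotypes 0 were called by limma and 0 with voom weights, with 0 on chow and 2 on HFCF at an unadjusted p under 0.05. The ligand gene Rtn4 was expressed in every group, at 8.71 to 14.5 RPKM as group means, with genotype log2 fold changes of 0.16 (SE 0.10) and 0.32 (SE 0.14). Ngfr, the coreceptor p75, rose with HFCF by 1.18 (SE 0.23) in WT and by 2.02 (SE 0.23) in HuRHep-/- livers. Tnfrsf19, the alternative coreceptor TROY, rose by 1.24 (SE 0.30) and 1.04 (SE 0.30). Rtn4rl1, a related receptor, was read in all groups at 2.05 to 3.69 RPKM as group means, and its differences between diets were not called. Rtn4rl2, another, lay at 0.0751 to 0.301 RPKM. On HFCF it was called higher in HuRHep-/- livers (2.11, SE 0.61, limma adjusted p = 0.0170) and not in WT livers (0.71, SE 0.61). Summed neuron markers were 5.61 to 8.64 CPM per library in HFCF HuRHep-/- livers and 6.21 to 9.68 in HFCF WT livers, which overlap. On chow they were 15.5 to 21.7 against 10.9 to 11.504 CPM in WT livers, without overlap, and 1 of 2 tested markers was called higher. Their part in the level of Rtn4r was not tested.

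The promoter of Rtn4r is shown as that of the transcript with 0 reads in the WT livers. It is among the richest in G and C, with 78% G or C, at the 98.1 percentile of 32851 mouse promoters, and 47 CpG dinucleotides (RefSeq, GRCm38.p6, chr16:18127392-18127691, plus strand). That of Atp4a holds 52.7% G or C and 2 CpG dinucleotides (chr7:30711959-30712258, plus strand). Capitals mark GGGCGG or CCGCCC in the former, and the latter holds neither.
Rtn4r promoter: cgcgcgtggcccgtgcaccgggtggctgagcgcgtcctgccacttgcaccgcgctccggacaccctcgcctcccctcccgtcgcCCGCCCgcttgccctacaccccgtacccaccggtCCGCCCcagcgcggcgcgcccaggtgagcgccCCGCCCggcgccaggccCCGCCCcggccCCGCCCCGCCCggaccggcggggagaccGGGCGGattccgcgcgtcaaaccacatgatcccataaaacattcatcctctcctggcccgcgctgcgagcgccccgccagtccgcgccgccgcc
Atp4a promoter: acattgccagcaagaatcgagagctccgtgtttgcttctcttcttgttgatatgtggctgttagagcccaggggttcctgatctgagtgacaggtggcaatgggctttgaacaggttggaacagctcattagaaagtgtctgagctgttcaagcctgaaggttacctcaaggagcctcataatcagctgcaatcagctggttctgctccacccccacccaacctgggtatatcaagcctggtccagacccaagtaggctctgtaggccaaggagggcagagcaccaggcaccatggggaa

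None of the 10 motifs searched was common to all promoters. The 10 promoters belong to 7 transcripts, all but Gm12195. On either strand the GC box GGGCGG was found in 6 of the 10, those of Slc13a3, Dnaic1, Emp2 and Rtn4r and 2 of Espn, beside 35.7% of all promoters. The E-box CACGTG was in 2, in Slc13a3 and Plcxd1, beside 7.15%, and the antioxidant response core TGACNNNGC in 3, in Slc13a3, Emp2 and Plcxd1, beside 12.4%. The TATA box TATAAA was in 0, beside 13.6%, the AP-1 site TGANTCA in 0, beside 7.81%, and the STAT element TTCNNNGAA in 0, beside 8.3%. The CCAAT box CCAAT was in 1, of Espn, beside 37.4%, and the nuclear receptor element AGGTCA in 1, of Plcxd1, beside 16.3%. The CRE core TGACGTCA and the HNF1 element GTTAAT were in 0, beside 1.79% and 7.1%. A missing match says only that these letters are not in these windows.

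Gm12195, of unknown function, was separated by genotype on both diets. It had 13, 19 and 13 reads in chow WT and 115, 61 and 58 in chow HuRHep-/- livers. With HFCF the counts were 19, 16 and 16 in WT and 142, 134 and 116 in HuRHep-/- livers. The WT groups overlapped, at 0.498 ± 0.119 and 0.4996 ± 0.0092 CPM, and the HuRHep-/- groups lay at 2.35 ± 0.87 and 3.34 ± 0.24 CPM. The log2 fold change was 2.17 (SE 0.31) on chow and 2.70 (SE 0.17) on HFCF.

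With diet Gm12195 did not pass the test in either genotype. The log2 difference was 0.03 (SE 0.25) in WT and 0.57 (SE 0.25) in HuRHep-/- livers, with limma adjusted p = 0.9504 and 0.0951. Chow HuRHep-/- replicate 1 (3.35 CPM) lay within the HFCF HuRHep-/- range, and without it the latter difference was 0.86 (adjusted p = 0.0170). The RNA spans chr11:50134082-50135004 on the minus strand with 469 exon bases. Because it is short, its 1.06 RPKM in chow WT livers stood beside the 1.04 RPKM of Emp2 although its CPM was far lower.

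**Figure D3:**
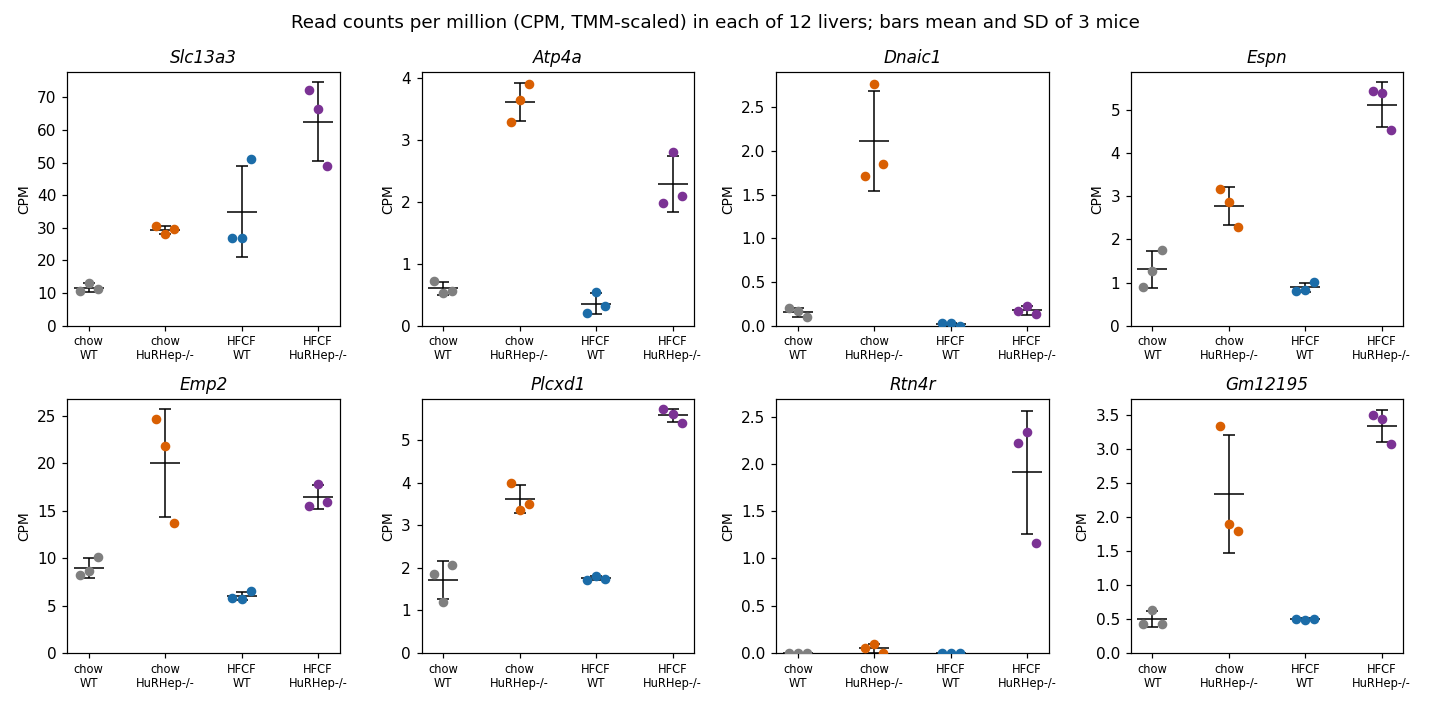
TMM-scaled CPM (y axis, from 0, a scale of its own in each panel) of the 8 transcripts in the 4 groups (x axis); points are single livers and bars the mean and SD of 3 mice. HuRHep-/- livers lie above WT livers of the same diet in all panels but for the overlap of Slc13a3 on HFCF and of Rtn4r on chow.

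Set side by side, the 8 transcripts shared the genotype order by which they were chosen and little else. As the choice by genotype p-values led to, 6 of the 7 tested on chow were called higher in livers labelled HuRHep-/-, all but Espn, and of the 7 tested on HFCF 6 were, all but Slc13a3. These counts support nothing about the 8. Dnaic1 passed the count filter of the chow fit, and Rtn4r that of the HFCF fit, only through livers labelled HuRHep-/-. The background over all tested genes is given for scale, and 1.32% were called higher and 1.05% lower on chow, and 2.22% higher and 1.57% lower on HFCF. In CPM the HuRHep-/- livers lay above all WT livers for 7 of 8 on chow and 7 of 8 on HFCF, and for 6 of 8 on both. The shares over all 14535 genes were 14.3%, 17.3% and 4.53%. Per length, chow WT levels ran from 0 for Rtn4r and 0.0557 RPKM for Dnaic1 to 2.25 for Slc13a3, and HFCF HuRHep-/- levels from 0.0643 for Dnaic1 to 11.99 for Slc13a3.

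**Figure D4:**
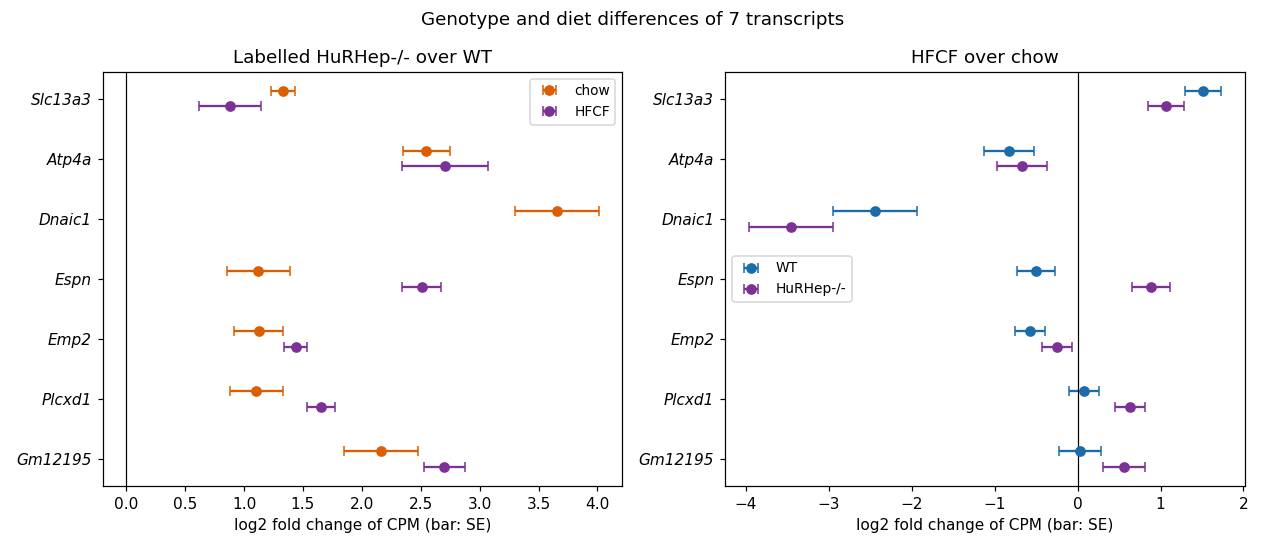
Log2 fold changes with SE (x axis) of 7 transcripts (y axis), Rtn4r being left out because its WT livers had no reads; left, livers labelled HuRHep-/- over WT on chow (orange) and HFCF (purple), Dnaic1 being too low on HFCF; right, HFCF over chow in WT (blue) and HuRHep-/- livers (purple). All points of the left panel are above 0, whereas those of the right panel lie on either side of 0. The diet points of Dnaic1 are a description, since it entered the fit only through chow HuRHep-/- livers.

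Diet divided the 8. In WT livers 1 was called, Slc13a3, which was higher on HFCF. Under the HuRHep-/- label 3 were called, Slc13a3, Espn and Plcxd1, all higher. Over all tested genes 6.58% were called higher in WT and 14.2% in HuRHep-/- livers. Dnaic1 (lower on HFCF) and Rtn4r (higher) are not counted, because each passed the count filter only through the group in which it was high. The HuRHep-/- count lost Plcxd1 without chow HuRHep-/- replicate 2 or 3. No transcript was called for a difference in diet effect between genotypes, where limma called 0 of 14535 genes (0%), against 1 gene with voom weights and 2116 genes (14.6%) at an unadjusted p under 0.05. The unadjusted p of Espn was 0.00113, and those of the others apart from Rtn4r were 0.0513 or above.

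Between mice of 1 group the transcripts moved together only in part. Deviations from group means, as log2 CPM over 12 livers, gave 28 pairs with a median Pearson r of 0.14, from -0.58 (Slc13a3 and Dnaic1) to 0.81 (Emp2 and Rtn4r), and 16 were above 0. Without Dnaic1 and Rtn4r the 15 remaining pairs had a median of 0.19, from -0.25 to 0.70, and 9 were above 0. For all 8 over the chow livers alone the median r was -0.0066, and over the HFCF livers alone 0.31. The median between 1 of the 8 and another tested gene was 0.01. Emp2 and Rtn4r had a Spearman rho of 0.56. Espn and Emp2, with r = 0.70, had the highest rho of the 28 pairs, 0.73. The points share library and depth, and Rtn4r and Dnaic1 rest on few reads.

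The genes with the profile most like the mean of the 8 standardized profiles, over 12 livers, were Tmem229a (r = 0.96), Med28 (0.96), Ptgr1 (0.95), Efcab3 (0.95), Gm839 (0.94), Slc41a3 (0.93), Card10 (0.93), Tmem265 (0.93), Nudt16l1 (0.93) and Cyp4f16 (0.92). They differ in size of change. Tmem265, which encodes a membrane protein, had genotype log2 fold changes of 1.86 (SE 0.15) and 2.16 (SE 0.17), and Med28, for a Mediator subunit, 0.29 (SE 0.07) and 0.59 (SE 0.07). Of the 8 themselves, Gm12195 followed the mean of the other 7 most closely (r = 0.98) and Dnaic1 least (0.54). The genotype difference was left in these profiles, so high values of r among the 8 follow from their choice.

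AU-rich pentamers were scarce in the 3′ untranslated regions of the 7 coding transcripts, as GENCODE gives them for their longest coding transcripts. The pentamer ATTTA of AU-rich elements occurred once in Emp2 and in 0 of the other 6, whereas 68.9% of 13307 tested genes hold at least 1. All 7 regions had less A and T than the median gene (44% to 51.5% against 55.5%), and 5 of 7 were 182 to 385 bases long, beside a median of 1120. The run TTTTT occurred 11 times in Slc13a3, 8 in Espn and 8 in Emp2, counting overlaps, and in 0 of the other 4, beside at least 1 in 76.7% of genes. Per kilobase that is 20.8 in Espn (the 96.6 percentile), 6.66 in Slc13a3 and 2.99 in Emp2, beside a median of 3.75. A site each of Slc13a3 and Emp2 is printed here because HuR is known to bind letters of this kind, each as 30 bases of the transcript's strand in GRCm38, with TTTTT runs or ATTTA in capitals.
Slc13a3, chr2:165406650-165406679, minus strand: gccctgctggggacTTTTTTTTaggctggg
Emp2, chr16:10281884-10281913, minus strand: tattaggaccaaaacctgttactgtATTTA

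These matches are letters in a sequence, and binding was not measured.

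Cholangiocyte markers, of which 3 of 9 tested were called higher in HFCF HuRHep-/- livers, summed to between 82.4 and 127 CPM per library in HFCF WT and 176 to 284 in HFCF HuRHep-/- livers. On chow they were 76.1 to 119 and 88.7 to 128 CPM, which overlap. Markers of macrophages were higher without overlap in chow HuRHep-/- than in chow WT livers (204 to 301 against 146 to 185 CPM), and overlapped on HFCF (300 to 501 against 220 to 355 CPM). In each diet 0 of 8 were called by limma or with voom weights, with 5 on chow and 3 on HFCF at an unadjusted p under 0.05. Lymphocyte markers (8 of 8 listed) summed to 3.03 to 4.55 CPM in HFCF WT and 6.33 to 7.07 in HFCF HuRHep-/- livers, and neutrophil markers (5 of 6 listed) to 2.27 to 3.40 and 4.29 to 5.56 CPM, both without overlap. On chow both overlapped between genotypes, at 3.45 to 5.19 and 4.18 to 5.48 CPM for lymphocytes and 1.91 to 2.68 and 2.10 to 3.27 for neutrophils. On HFCF limma and voom weights called 0 of 7 and 0 of 3 tested, with 5 and 2 at an unadjusted p under 0.05. Of the kidney list, Slc34a1 and Slc12a1 had at most 3 reads in every library, and Umod, Aqp2 and Slc22a6 were not analysed here. Beyond these values, the part of other cell types in the levels of Espn, Emp2, Plcxd1 and Rtn4r was not tested.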

How the data were processed

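The authors aligned stranded liver libraries to GRCm38.p6 in CLC Genomics Workbench and deposited, per diet, a table of unnormalized read counts per gene, written as text with commas, which were removed (0 values were then other than whole). A count model, which such values allow, was not run. Total counts ran from 30071731 to 35949203 per library. From the deposited counts log2 CPM was computed with a pseudocount of 0.5 and TMM factors (trims 0.3 and 0.05), over genes with the equivalent of 10 counts in at least 3 libraries and 15 in all. That left 13526 genes for genotype on chow, 14295 on HFCF and 14535 for diet and the interaction over 12 libraries. Differences were tested with limma 3.58.1 in R 4.3.3 with a variance trend and Benjamini-Hochberg adjustment over all tested genes. A call needed an adjusted p of at most 0.05 and a fold change of at least 1.5. RPKM used the union of GENCODE exons, and 23289 of 23391 identifiers matched a GENCODE symbol. Promoters, 300 bases around each start, came from RefSeq and 3′ regions from GENCODE.

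The 8 transcripts, the gene lists and the tests were chosen with earlier results of these data known. Text names the 8, Elavl1, up to 5 genes per family, neighbouring and overlapping genes, the 10 genes of most like profile and cell type markers. Family genes called for genotype or the interaction came first, then the most abundant. Calls by diet played no part in that order, so some genes called by diet are not named. Rtn4rl2 was added for its diet call. The 3 mice per group are separate animals. Same-numbered mice were not paired by the labels, and their deviations correlated between -0.03 and 0.19 within diets. The alternatives tried were scaling by RLE or by the upper quartile, a pseudocount of 2, 2 other count filters, voom weights, the replicate number as a block, adjusted p alone, 10 counts over each group, other sets of libraries and leaving out each library. The fits were also run on simulated counts with known changes, and the outcome is not given here.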

Additional observations from a re-analysis of the deposited data

Results flagged for a closer look

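Espn was set apart because every HFCF HuRHep-/- liver lay above the mean of the chow HuRHep-/- livers and every HFCF WT liver below the mean of the chow WT livers. The diet difference was larger in HuRHep-/- livers by 1.39 on the log2 scale (SE 0.33). The interaction test of limma gave an adjusted p of 0.136 and an unadjusted p of 0.00113, and the adjusted p ran from 0.104 to 0.312 over the alternatives.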

How the results depend on the processing

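With adjusted p alone the genes called were 579 for genotype on chow, 1003 on HFCF, 3552 for diet in WT and 5763 in HuRHep-/- livers, because the fold limit was dropped. The interaction had 1 called gene without a count filter and 1 with voom weights. For diet in WT livers 1 of the 8 transcripts was called, in place of 2, with at least 10 counts in every library, with 10 counts over each group and in the fit of the 6 WT libraries, which Dnaic1 did not enter, and Dnaic1 is therefore not counted in the report. In HuRHep-/- livers 3 in place of 5 were called with 10 counts in every library, which removed Dnaic1 and Rtn4r, whose calls there the count filter fixed. Leaving out 1 library gave 9 to 318 called genes and 2 to 5 of the 8 for genotype on chow, 30 to 854 genes and 4 to 7 of the 8 on HFCF, 0 to 37 genes and 0 of the 8 for the interaction, 915 to 1886 genes and 1 to 3 of the 8 for diet in WT, and 3 to 6 of the 8 in HuRHep-/- livers. The interaction reached 37 genes without HFCF WT replicate 3. The lowest chow count came without chow HuRHep-/- replicate 2, and chow WT replicates 1 and 3 and chow HuRHep-/- replicate 1 left 118, 76 and 97 genes. The lowest HFCF count came without HFCF HuRHep-/- replicate 1, while HFCF WT replicate 1 and HFCF HuRHep-/- replicates 2 and 3 left 44, 34 and 105, and the highest came without HFCF WT replicate 3. For diet in WT livers the lowest came without HFCF WT replicate 3, and 923 without chow WT replicate 1. Over the same omissions the mean diet difference ran from -0.54 to -0.33 for Emp2, 0.23 to 0.43 for Plcxd1 and 0.22 to 0.44 for Gm12195, and the exact permutation p missed 0.05 for Emp2 without chow HuRHep-/- replicate 1 or 2 or HFCF HuRHep-/- replicate 1 (highest 0.06) and for Plcxd1 in 10 of 12 omissions (highest 0.11), and reached 0.02 for Gm12195 without chow WT replicate 2. Signs turned where the difference was small. The WT diet difference was -0.16 to 0.23 for Plcxd1 (the former without chow WT replicate 2) and 0.21 down to -0.063 and -0.066 for Gm12195 (without chow WT replicates 1 and 3), and the interaction of Atp4a was -0.14 (without HFCF WT replicate 1) to 0.51. The causes were not tested. Genotype calls among the 8 follow from their choice and are listed for completeness. With the replicate number as a block, 270 genes and 5 of the 8 were called on chow, where Emp2 was lost (adjusted p = 0.0525), and 743 and 6 on HFCF. The block changed no other call among the 8. The labels do not pair the mice. Where counts are few, as for Dnaic1, Atp4a and Rtn4r, depth limits the values.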
